A study of Mus musculus with 22 samples.

Results

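The GABA-A receptor subunit genes Gabra2, Gabra3, Gabra4, Gabra5, Gabrb1, Gabrb2 and Gabrd were taken by name from the expression matrix and make up 7 of its 19 GABA-A receptor genes and 7 of its 23361 genes. The libraries came from the microdissected CA1 region of the hippocampus of 22 female mice, 1 library per mouse, all first-generation offspring of a Swiss Webster by DBA/C57BL6 cross. AL mice ate a normal diet ad libitum and were taken at 5 months (n = 5) or 15 months (n = 6). CR mice ate a calorie-restricted diet, in which the carbohydrate was reduced, and were taken at 5 months (n = 5) or 15 months (n = 6). Restriction began at about the same age in both CR groups. Age and length of restriction therefore cannot be told apart in CR mice. The design asked how expression differed with age under each diet and with diet at each age. Levels are FPKM (fragments per kilobase of transcript, scaled to the mapped fragments of the library), which are per length, so that levels of different genes within a library can be set side by side.

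The GABA-A receptor is a pentameric chloride channel that opens when GABA binds and mediates most fast inhibition in the forebrain. Most receptors hold alpha and beta subunits with 1 gamma or delta subunit. The alpha subunit sets much of the affinity for GABA, the response to benzodiazepines and the place of the receptor on the neuron: receptors with alpha2 gather at synapses, while those with alpha5, or with alpha4 and delta, lie largely outside synapses and carry tonic inhibition. The alpha5 subunit is abundant in CA1 pyramidal cells and bears on hippocampal learning.

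All values below are from whole CA1 tissue, where fewer cells of a type and less RNA per cell cannot be told apart. All 6 genes of a CA1 pyramidal neuron list (Wfs1, Fibcd1, Mpped1, Spink8, Pou3f1 and Ndst4) were above 0 in every library. So were all genes of lists for dentate gyrus, neocortex and subiculum, thalamus and choroid plexus, so presence alone does not mark the tissue. The summed level of the CA1 list was not tested. It ranged from 218 to 477 FPKM in AL 5 months (median 390) and 279 to 415 in CR 5 months (median 314). At 15 months it ranged from 173 to 268 in AL (median 213) and 88.5 to 418 in CR (median 243). In CR mice the range at 15 months thus held that at 5 months. The summed level of 8 neocortex and subiculum markers (Rorb, Fezf2, Foxp2, Rspo1, Tshz2, Fn1, Scnn1a and Ctgf) ranged from 38.5 to 62.3, 27.5 to 59.8, 51.3 to 104 and 31.7 to 135 FPKM in the same order of groups. A library's list score was the mean log2(FPKM + 0.1) of the list. By this score AL 15 months replicate 4 (2.62), AL 15 months replicate 5 (2.69) and CR 15 months replicate 4 (2.98) stood lowest for CA1 markers, below the next library at 3.62, and where a member's value moved most without them, both values are given.

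**Figure D1:**
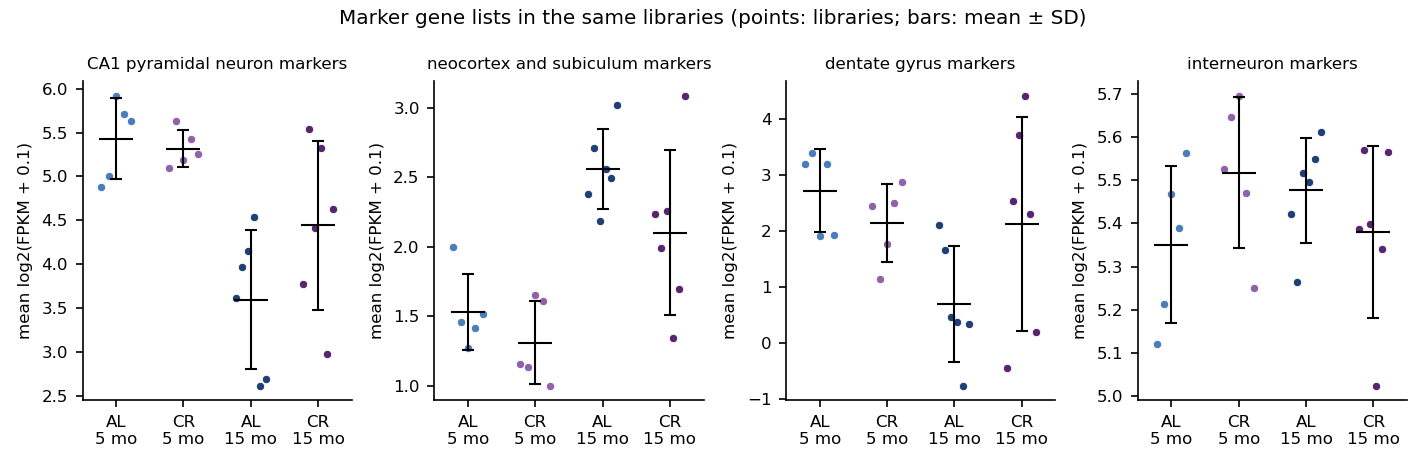
Mean log2(FPKM + 0.1) of 4 marker lists in each library (points), with the mean and SD of each group, for AL and CR mice at 5 and 15 months. The CA1 list averaged 5.43 in AL 5 months and 3.60 in AL 15 months, while the interneuron list lay at 5.35 and 5.48.

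The genes lie in 5 places on the mouse genome (GRCm38, GENCODE annotation). Gabra2 (chromosome 5, 70957597 to 71095849, minus strand), Gabra4 (chromosome 5, 71569749 to 71658308, minus strand) and Gabrb1 (chromosome 5, 71658113 to 72149037, plus strand) form a cluster. Gabra5 is on chromosome 7 (57407672 to 57510059, minus strand), Gabrb2 on chromosome 11 (42419757 to 42629028, plus strand), Gabra3 on the X chromosome (72432681 to 72656848, minus strand) and Gabrd on chromosome 4 (155384980 to 155398112, minus strand). Gabra4 and Gabrb1 share 46 exon bases on opposite strands, and because the library kit does not mark strand, fragments from those bases cannot be assigned to one of the genes.

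The sequences upstream of the transcription start are shown for the genes that were lower with age in AL mice (Gabra5, Gabra2 and Gabrb1) and for Gabra4, the neighbour of Gabrb1 in the cluster. They are RefSeq sequences (GRCm38.p6), 5′ to 3′ on the strand of the gene, cut to bases outside annotated exons, with capitals marking the motif GGGCGG or its complement, the core of the binding motif of SP factors. The first Gabrb1 window lies within the body of Gabra4, and the second Gabrb1 window is shown. This second window lies inside the span of Gabrb1 given above, at a start within the gene.
Gabra5 (chr7:57510060-57510309, minus strand): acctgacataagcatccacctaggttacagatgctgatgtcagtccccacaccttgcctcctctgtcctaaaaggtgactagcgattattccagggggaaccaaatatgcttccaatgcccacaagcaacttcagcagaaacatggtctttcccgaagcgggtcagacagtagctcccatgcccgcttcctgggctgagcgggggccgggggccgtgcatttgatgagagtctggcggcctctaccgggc
Gabra2 (chr5:71095850-71096099, minus strand): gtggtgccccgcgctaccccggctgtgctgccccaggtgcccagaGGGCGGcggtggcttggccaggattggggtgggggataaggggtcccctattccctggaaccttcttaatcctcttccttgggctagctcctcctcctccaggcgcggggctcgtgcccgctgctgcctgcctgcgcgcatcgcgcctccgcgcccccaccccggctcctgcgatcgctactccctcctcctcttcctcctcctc
Gabrb1 (chr5:71699825-71699931, plus strand): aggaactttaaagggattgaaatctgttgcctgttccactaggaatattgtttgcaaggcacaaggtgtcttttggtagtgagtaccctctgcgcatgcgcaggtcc
Gabra4 (chr5:71658364-71658558, minus strand): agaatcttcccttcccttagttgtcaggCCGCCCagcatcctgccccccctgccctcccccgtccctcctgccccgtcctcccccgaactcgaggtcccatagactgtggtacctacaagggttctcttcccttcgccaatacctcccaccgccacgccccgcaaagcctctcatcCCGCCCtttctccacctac
RefSeq start windows matched 6 of the 7 genes, in 10 windows; Gabrd had none. Over the 250 bases upstream of each start, GC content was 70% for Gabra2, 61.2% for Gabra4, 64.4% and 50.8% for the windows of Gabrb1 and 56.4% for Gabra5, against a median of 52.4% over 32851 mouse windows. Neither window of Gabra3 held a CpG. The motif GGGCGG, on either strand, was found in 3 of the 10 windows, once in that of Gabra2, at 2 places in that of Gabra4 and once in 1 Gabrb2 window, against 32.7% of all windows. The EGR motif GCGTGGGCG and the cyclic AMP response element TGACGTCA, each searched on both strands, were in none of the 10 windows and in 0.536% and 1.55% of all windows. TATAAA was found in both Gabra3 windows and in 1 Gabrb2 window, against 12.4% of all windows. The Gabra3 windows overlap, so they may hold the same match. None of the 4 motifs was found in the Gabra5 window or in either Gabrb1 window.

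At 5 months in AL mice Gabra5 was the member with the highest mean level (93.9 ± 14.0 FPKM, SD, n = 5), followed by Gabra2 (84.7 ± 9.41), Gabrb2 (47.6 ± 4.04), Gabra4 (31.2 ± 4.25), Gabra3 (27.6 ± 6.92), Gabrb1 (24.0 ± 3.45) and Gabrd (15.8 ± 4.13). Gabra5 exceeded Gabra2 in 4 of 5 libraries and Gabra2 exceeded Gabrb2 in 5 of 5, while Gabra4 exceeded Gabra3, and Gabra3 exceeded Gabrb1, in only 3 of 5 each. In CR 5 months Gabra2 (88.2 ± 6.71) and Gabra5 (81.5 ± 19.0) again stood above Gabrb2 (44.7 ± 3.06) in every library, with Gabra2 above Gabra5 in 3 of 5.

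In AL 15 months the order was different and closer. Gabra2 (57.3 ± 9.82 FPKM, SD, n = 6), Gabrb2 (52.0 ± 11.3), Gabra3 (48.6 ± 14.0) and Gabra5 (41.3 ± 14.1) overlapped, with Gabra2 above Gabrb2 in 3 of 6 libraries and Gabra3 above Gabra5 in 3 of 6. In CR 15 months Gabra2 (67.3 ± 22.1) and Gabra5 (67.1 ± 19.0) had nearly the same mean, Gabra2 being the higher in 2 of 6 libraries, and both had a mean above that of Gabrb2 (49.5 ± 4.99). Gabrb1 and Gabrd were the members of lowest mean in both 15-month groups, at 17.1 ± 2.56 and 25.1 ± 10.2 FPKM in AL and 20.7 ± 4.52 and 19.4 ± 7.53 FPKM in CR.

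**Figure D2:**
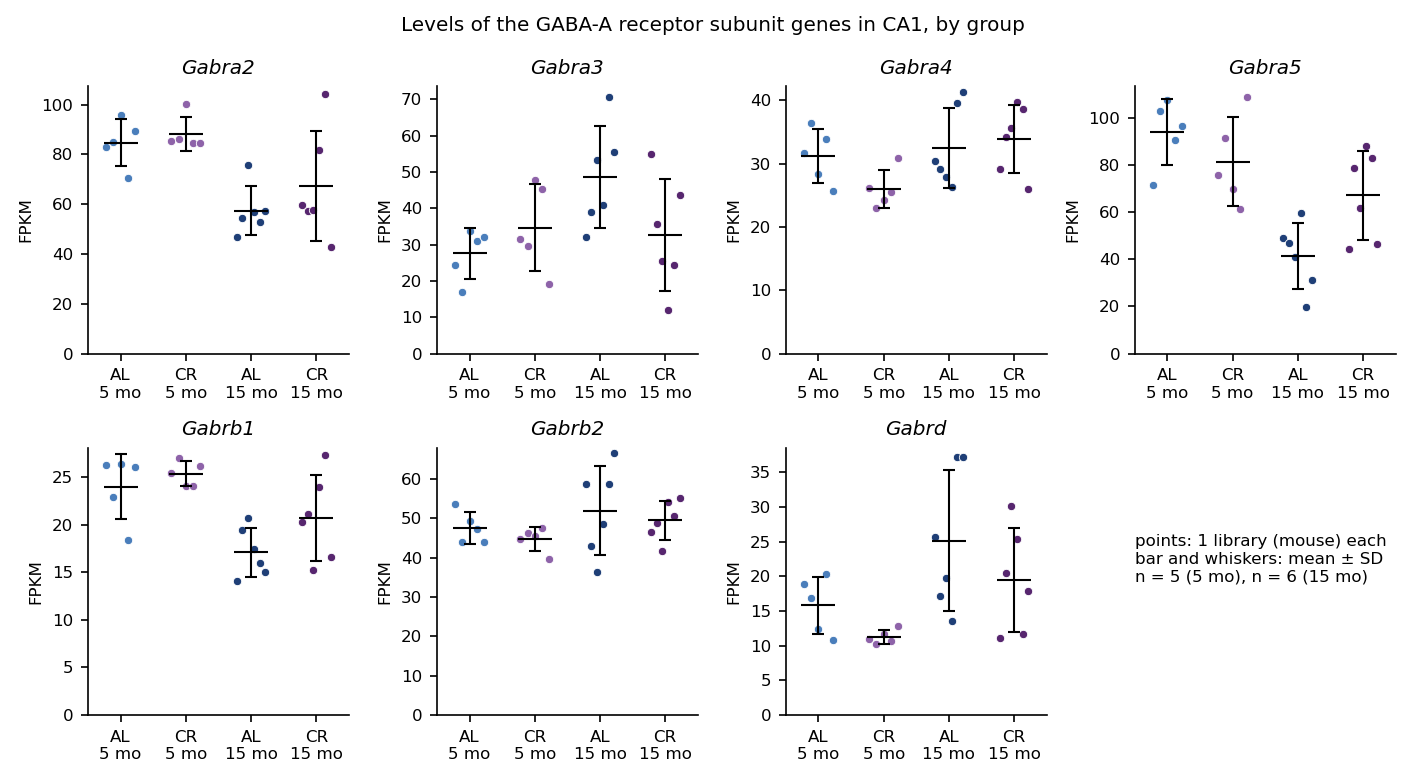
FPKM of the 7 subunit genes in each library (points) with the mean and SD of each group (n = 5 at 5 months, n = 6 at 15 months), for AL and CR mice at 5 and 15 months. Gabra5 in AL 15 months lies between 19.6 and 59.5 FPKM, below all AL 5 months libraries, whereas these AL groups overlap for the other 6 genes.

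With age in AL mice, Gabra5, Gabra2 and Gabrb1 fell and none of the 7 genes rose (limma on log2(FPKM + 0.1), all tested genes adjusted together by the Benjamini-Hochberg method, threshold 0.05). That is 3 of 7 genes lower, against 9.97% of the 16978 tested genes lower and 20.6% called in either direction. The 7 genes were chosen with earlier results of these data known, so this count describes them and is not a test of enrichment. The groups did not overlap for 1 of the 7 genes, Gabra5, against 14.0% of all genes. The median log2 fold change of the 7 genes was 0.05, and that of all genes was -0.0018.

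Gabra5, the alpha5 subunit of extrasynaptic receptors in CA1 pyramidal cells, had 71.5, 103, 108, 90.8 and 96.7 FPKM in AL 5 months. In AL 15 months it had 48.9, 47.1, 40.9, 59.5, 19.6 and 31.4 FPKM in replicates 0 to 5, with a median of 44.0. Every 15-month library was thus below every 5-month library, and the lowest were replicates 4 and 5, which were also lowest for CA1 markers. Gabra5 was not low in every library of low CA1 score: CR 15 months replicate 4, the third of these, had 82.9 FPKM. On the log2 scale the fold change came to -1.25 (SE 0.24, limma adjusted p = 0.00155), a ratio of mean FPKM of 0.439, with an exact two-sided permutation p of 0.00433.

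Gabra2, the alpha2 subunit of synaptic receptors, had 83.0, 85.1, 95.9, 70.4 and 89.3 FPKM in AL 5 months and ranged from 46.7 to 75.8 FPKM, with a median of 55.6, in AL 15 months. The groups overlapped through a single library, AL 15 months replicate 2 at 75.8 FPKM, while the other 15-month libraries were at most 57.2. The fold change was -0.57 on the log2 scale (SE 0.16, limma adjusted p = 0.0182; exact permutation p = 0.00649). It missed the threshold without AL 5 months replicate 2, at -0.53 (limma adjusted p = 0.0525).

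Gabrb1, a beta subunit that forms the GABA site together with an alpha subunit, had 26.3, 22.9, 26.3, 18.4 and 26.0 FPKM in AL 5 months and ranged from 14.1 to 20.7, with a median of 16.7, in AL 15 months. Only AL 5 months replicate 3, at 18.4 FPKM, lay within the range of the older mice. The fold change was -0.49 on the log2 scale (SE 0.13, limma adjusted p = 0.0145; exact permutation p = 0.0108).

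Gabra3, the alpha3 subunit, had a higher mean in the older mice without passing the threshold. It had 24.4, 16.9, 33.6, 30.9 and 32.0 FPKM in AL 5 months and ranged from 32.1 to 70.7, with a median of 47.1, in AL 15 months. All 6 older libraries were above the median of the younger ones and 5 of 6 above their highest. The log2 difference was 0.81 (SE 0.32, limma adjusted p = 0.0768; exact permutation p = 0.00649). It passed when AL mice were fitted alone (limma adjusted p = 0.0250). With a regional score as a covariate, in which the CA1 score was subtracted from that of neocortex and subiculum, it was 0.07 (SE 0.49, limma adjusted p = 0.965).

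Gabrd, whose delta subunit joins alpha4 in extrasynaptic receptors, had 18.8, 16.9, 12.3, 20.3 and 10.8 FPKM in AL 5 months and 13.6 to 37.2 FPKM, with a median of 22.7, in AL 15 months. The groups overlapped, and the highest values were 37.2 FPKM in both AL 15 months replicates 4 and 5. The log2 difference was 0.60 (SE 0.28, limma adjusted p = 0.123; exact permutation p = 0.0909). It was 0.27 (limma adjusted p = 0.467) without the 3 libraries of lowest CA1 score, which include these 2. Gabra4, the alpha4 partner of delta, differed by 0.05 (SE 0.13, adjusted p = 0.833) and Gabrb2, the beta2 subunit, by 0.10 (SE 0.12, adjusted p = 0.576), both within the spread between mice.

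Other GABA-A receptor genes of lower level did not pass the test with age in AL mice. The log2 difference was 0.18 for Gabrg1 (limma adjusted p = 0.478) and 0.06 for Gabrg3 (limma adjusted p = 0.833), which encode gamma subunits at mean levels of 6.44 and 3.40 FPKM in AL 5 months. It was 0.28 for Gabre, 1.02 for Gabrq, -0.06 for Gabrr1 and -0.51 for Gabrr2, all of which had a mean under 1 FPKM in AL 5 months. Gabra6, Gabrp and Gabrr3 were below the filter of a mean of 0.1 FPKM and were not tested.

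The marker lists moved in the same comparison, in which 10.7% of all tested genes were called higher and 9.97% lower. In AL mice 4 of 6 CA1 pyramidal neuron markers were lower at 15 months (Fibcd1, Spink8, Pou3f1 and Ndst4), as were 2 of 5 dentate gyrus markers (Dsp and Lct), while 3 of 8 neocortex and subiculum markers were higher (Rorb, Foxp2 and Ctgf). Fibcd1 differed by -3.35 and Spink8 by -3.81 on the log2 scale, and Wfs1 and Mpped1 were not called. Of the choroid plexus markers 5 of 7 were lower, with a list median of -2.71, and the median of the oligodendrocyte list was -0.80. In the other lists, called markers were 2 of 4 for CA2 (both lower), 1 higher and 1 lower of 4 for CA3, 2 of 5 for thalamus (both higher), 1 higher and 1 lower of 5 for astrocytes, 1 of 6 for microglia (lower) and 0 of 5 for endothelium. None of 9 interneuron markers was called. The part of the choroid plexus, glial and dentate gyrus lists in the subunits' differences was not tested. With the regional score as a covariate, no member was called (limma), as for all other genes, and the log2 difference was -0.31 for Gabra5 (adjusted p = 0.653), -0.45 for Gabra2 (adjusted p = 0.448) and -0.30 for Gabrb1 (adjusted p = 0.532). Without the 3 libraries of lowest CA1 score, a choice made after seeing the data, Gabra5 (-0.93, limma adjusted p = 0.00743), Gabra2 (-0.55, adjusted p = 0.0217) and Gabrb1 (-0.42, adjusted p = 0.0416) were all still lower, and Gabra3 differed by 0.60 (adjusted p = 0.250). Age and this score moved together in AL mice, and their parts in these differences cannot be told apart.

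**Figure D3:**
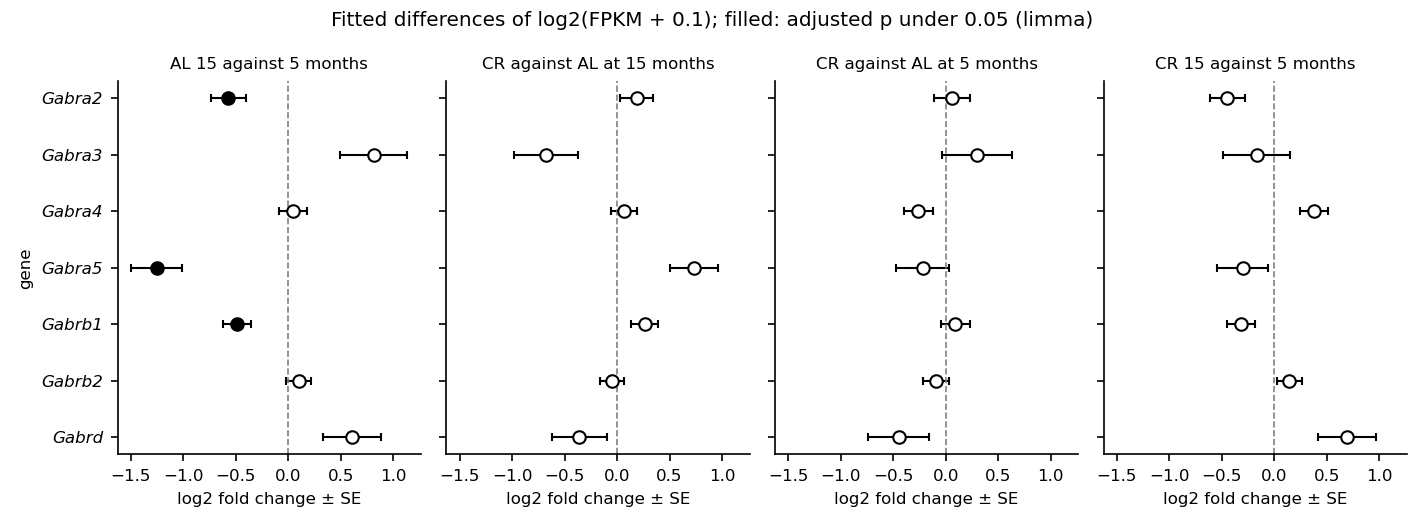
Fitted log2 fold change of FPKM + 0.1 (points) with its SE (bars) for each subunit gene in 4 comparisons; filled points have a limma adjusted p under 0.05. The filled points are Gabra2 (-0.57), Gabra5 (-1.25) and Gabrb1 (-0.49) in AL 15 against 5 months, and no other comparison has one.

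At 15 months no member was called between CR and AL mice (limma, 0 of 7, against 0.742% of all genes, 126 genes). At an unadjusted p under 0.05 there were 2 of 7, Gabra5 and Gabra3, against 17.1% of all genes. The groups overlapped for all 7 members and did not overlap for 0.984% of all genes. Gabra5 in CR 15 months had 44.3, 78.9, 61.8, 88.1, 82.9 and 46.7 FPKM in replicates 0 to 5, with a median of 70.3. All 6 lay above the AL 15 months median and 4 of 6 above the highest AL 15 months library. The log2 difference was 0.73 (SE 0.23, limma p = 0.00458, adjusted p = 0.123; exact permutation p = 0.0325). It passed the threshold only without CR 15 months replicate 0 (0.84, adjusted p = 0.0464). Without the 3 libraries of lowest CA1 score it was 0.34 (adjusted p = 0.441).

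Gabra3 in CR 15 months ranged from 11.9 to 55.0 FPKM, with a median of 30.6, a wider spread than in any other group, and 3 of 6 libraries were below the lowest AL 15 months library. The log2 difference was -0.68 (SE 0.31, limma p = 0.0377, adjusted p = 0.262; exact permutation p = 0.0823), and without the 3 libraries of lowest CA1 score it was -0.42 (adjusted p = 0.598). Gabrb1 differed by 0.26 (adjusted p = 0.299), Gabrd by -0.36 (adjusted p = 0.495), Gabra2 by 0.19, Gabra4 by 0.07 and Gabrb2 by -0.05. The sign of the difference in Gabrd and in Gabrb2 turned when the 3 libraries of lowest CA1 score were left out, at 0.10 and 0.093. Beside these values, the CA1 list score was 3.60 ± 0.79 in AL 15 months and 4.44 ± 0.96 in CR 15 months, and with the regional score as a covariate the difference was 0.31 for Gabra5 (limma adjusted p = 0.618) and -0.34 for Gabra3 (limma adjusted p = 0.757).

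At 5 months no member was called between CR and AL mice, as for all other genes (limma, 0 of 7, against 0.00% of all genes). At an unadjusted p under 0.05 there were 0 of 7 members and 789 genes in all (4.65%). Gabra4 had 31.7, 36.4, 28.4, 33.9 and 25.7 FPKM in AL and 26.1, 22.9, 24.3, 25.5 and 30.8 FPKM in CR, a log2 difference of -0.26 (SE 0.14; exact permutation p = 0.0556). Gabrd lay between 10.2 and 12.8 FPKM in CR 5 months, a narrow range in which 2 of 5 libraries were below the lowest AL library, with a difference of -0.45 (SE 0.29; exact permutation p = 0.0635). The groups overlapped for all 7 members and did not overlap for 1.36% of all genes. The other 5 members differed by -0.22 (Gabra5) to 0.30 (Gabra3), all within the spread between mice.

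With age in CR mice no member was called either (limma, 0 of 7, against 3.36% of all genes, 570 genes), and 4 of 7 had an unadjusted p under 0.05, against 18.0% of all genes. The groups overlapped for all 7 members and did not overlap for 3.26% of all genes. Gabra2 differed by -0.45 (SE 0.16, adjusted p = 0.145) and was called without CR 15 months replicate 4, which had the highest level of all libraries at 104 FPKM (-0.59, adjusted p = 0.0189). Gabrb1 differed by -0.32 (SE 0.13, adjusted p = 0.207). Gabra4 differed by 0.37 (SE 0.13, adjusted p = 0.126; exact permutation p = 0.0260), with 22.9 to 30.8 FPKM in the younger and 26.0 to 39.7 FPKM (median 34.9) in the older mice. Gabrd differed by 0.69 (SE 0.28, adjusted p = 0.181; exact permutation p = 0.0346). Gabra5 differed by -0.30 (SE 0.24, adjusted p = 0.543), and the level in CR mice aged 15 months overlapped that in CR mice aged 5 months, which was 75.9, 91.4, 69.8, 61.3 and 109 FPKM.

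CR 15 months against AL 5 months, the comparison of restricted older mice with young mice on the normal diet, also gave no called member (limma, 0 of 7, against 3.12% of all genes, 529 genes; 2 of 7 at an unadjusted p under 0.05, against 19.3%). The groups overlapped for all 7 members and did not overlap for 2.94% of all genes. Gabra5 differed by -0.52 (SE 0.24, adjusted p = 0.243) and Gabra2 by -0.39 (SE 0.16, adjusted p = 0.196). With the regional score as a covariate they differed by -0.0079 (limma adjusted p = 0.992) and -0.32 (limma adjusted p = 0.501). Gabra2 was called without CR 15 months replicate 4 (-0.52, adjusted p = 0.0395). The AL 5 months libraries are shared with the AL age comparison above.

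The change with age was tested directly between the diets. The interaction was called for no gene (limma, 0 of 7 members, against 0.00% of all genes; 1301 genes, 7.66%, at an unadjusted p under 0.05). The 2 members with an unadjusted p under 0.05 were Gabra5 (log2 difference of the differences 0.95, SE 0.34, limma adjusted p = 0.624) and Gabra3 (-0.98, SE 0.45, limma adjusted p = 0.639). The value for Gabra5 was 0.56 both with the regional score as a covariate and without the 3 libraries of lowest CA1 score, and that for Gabra3 was -0.67 and -0.72. A fall in Gabra5 that was called in AL mice and not in CR mice was therefore not shown to differ between the diets.

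Proportions of the subunits were read as the share of each gene in the summed FPKM of its class in a library: 6 alpha genes, 3 beta genes, and the delta and gamma genes (4) together. These are shares of RNA, not of receptors. The shares of a class sum to a whole, so a lower share of a gene goes with higher shares of others. Tests within a class are therefore not independent, and a share can move through the sum alone. The summed alpha level was 320.2 ± 22.02 FPKM in AL 5 months, 308 ± 14.0 in CR 5 months, 270 ± 23.1 in AL 15 months and 289 ± 24.2 in CR 15 months. The summed beta level was 152 ± 6.94, 144 ± 3.68, 131 ± 12.2 and 140 ± 17.5 FPKM in the same order of groups. For the delta and gamma genes it was 83.7 ± 5.90, 74.6 ± 1.07, 94.3 ± 18.7 and 85.0 ± 12.7 FPKM. Exact two-sided permutation tests were made for the 7 genes in 5 comparisons, 35 in all without adjustment, and 11 of 35 gave p under 0.05. The smallest p possible is 0.00794 for 5 against 5 mice and 0.00216 otherwise.

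Among the alpha genes the share of Gabra5 was lower and that of Gabra3 higher with age in AL mice, with no overlap between the groups for either. In levels, these groups did not overlap for 14.0% of all genes. Gabra5 made up 24.0%, 32.7%, 30.2%, 29.3% and 29.9% of the alpha sum in AL 5 months and 7.01% to 22.04% in AL 15 months. Its mean share went from 29.2% ± 3.21 to 15.5% ± 5.80, a difference of -13.7 points (exact permutation p = 0.00433). Gabra3 made up 8.18%, 5.38%, 9.44%, 9.99% and 9.89% in AL 5 months and 12.2% to 25.2% in AL 15 months, with means of 8.57% ± 1.92 and 17.9% ± 4.60, a difference of 9.34 points (exact permutation p = 0.00433). Without the 3 libraries of lowest CA1 score the differences were -10.2 points for Gabra5 (exact permutation p = 0.0159) and 7.50 points for Gabra3 (exact permutation p = 0.00794). The regional score was not used as a covariate for shares. With it, the log2 differences in level were -0.31 for Gabra5 and 0.07 for Gabra3. The level of Gabra5 was 2.93 to 6.08 times that of Gabra3 in AL 5 months and 0.278 to 1.52 times in AL 15 months, where it was above 1 in 3 of 6 libraries.

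In CR mice the same ratio was 1.35 to 5.71 at 5 months, and 0.806 to 7.42 at 15 months. The Gabra5 share was 26.4% ± 5.56 in CR 5 months and 23.0% ± 5.10 in CR 15 months. At 15 months it was 7.48 points above that in AL mice (exact permutation p = 0.0455), but in 7 of the 12 tests that left out 1 mouse the p was 0.0627 to 0.0887. Without the 3 libraries of lowest CA1 score it was 3.43 points (exact permutation p = 0.278). The Gabra3 share in CR 15 months was 11.6% ± 6.01, 6.32 points below AL 15 months (exact permutation p = 0.0714), and 3.68 points below without the 3 libraries of lowest CA1 score (exact permutation p = 0.341). CR 15 months was also 6.22 points below AL 5 months for Gabra5 (exact permutation p = 0.0455), a difference whose p rose to as much as 0.114 when 1 mouse was left out.

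The Gabra2 share of the alpha sum, at 26.4%, 28.7%, 21.4% and 23.0% in AL 5, CR 5, AL 15 and CR 15 months, differed by -5.08 points with age in AL mice (exact permutation p = 0.0541). In CR mice it differed by -5.63 points with age (exact permutation p = 0.0779). These were -3.74 points (exact permutation p = 0.167) and -7.55 points (exact permutation p = 0.00794) without the 3 libraries of lowest CA1 score. Of these libraries only CR 15 months replicate 4 came from CR mice.

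The Gabrb2 share of the beta sum was 31.2%, 31.1%, 39.3% and 35.6% in AL 5, CR 5, AL 15 and CR 15 months. It was higher by 8.07 points with age in AL mice (exact permutation p = 0.0238) and by 4.49 points in CR mice (exact permutation p = 0.0216). The level of Gabrb2 itself was not called. In AL mice its mean was 47.6 FPKM at 5 months and 52.0 FPKM at 15 months, while the beta sum was 152 and 131 FPKM. Without the 3 libraries of lowest CA1 score the difference was 6.19 points in AL mice (exact permutation p = 0.0714). In CR mice it was then 5.19 points (exact permutation p = 0.0159), but the p rose to as much as 0.0714 when 1 mouse was left out. The Gabrb1 share was 15.7%, 17.6%, 13.2% and 14.7%. It differed by -2.92 points with age in CR mice (exact permutation p = 0.00866), by -2.49 points in AL mice (exact permutation p = 0.147) and by 1.87 points between CR and AL at 5 months (exact permutation p = 0.0476), the last of which had a p up to 0.127 when 1 mouse was left out.

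The Gabrd share of the delta and gamma sum was 18.7%, 15.1%, 25.8% and 22.2%. With age it differed by 7.09 points in AL mice (exact permutation p = 0.0584) and 7.13 points in CR mice (exact permutation p = 0.0346, up to 0.0619 without 1 mouse). Without the 3 libraries of lowest CA1 score the difference was 3.76 points in AL mice (exact permutation p = 0.175). In CR mice it was 8.41 points (exact permutation p = 0.0159). The share of Gabra4, the usual partner of delta, was 9.81%, 8.45%, 11.95% and 11.7% of the alpha sum and was 3.27 points higher with age in CR mice (exact permutation p = 0.00649).

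**Figure D4:**
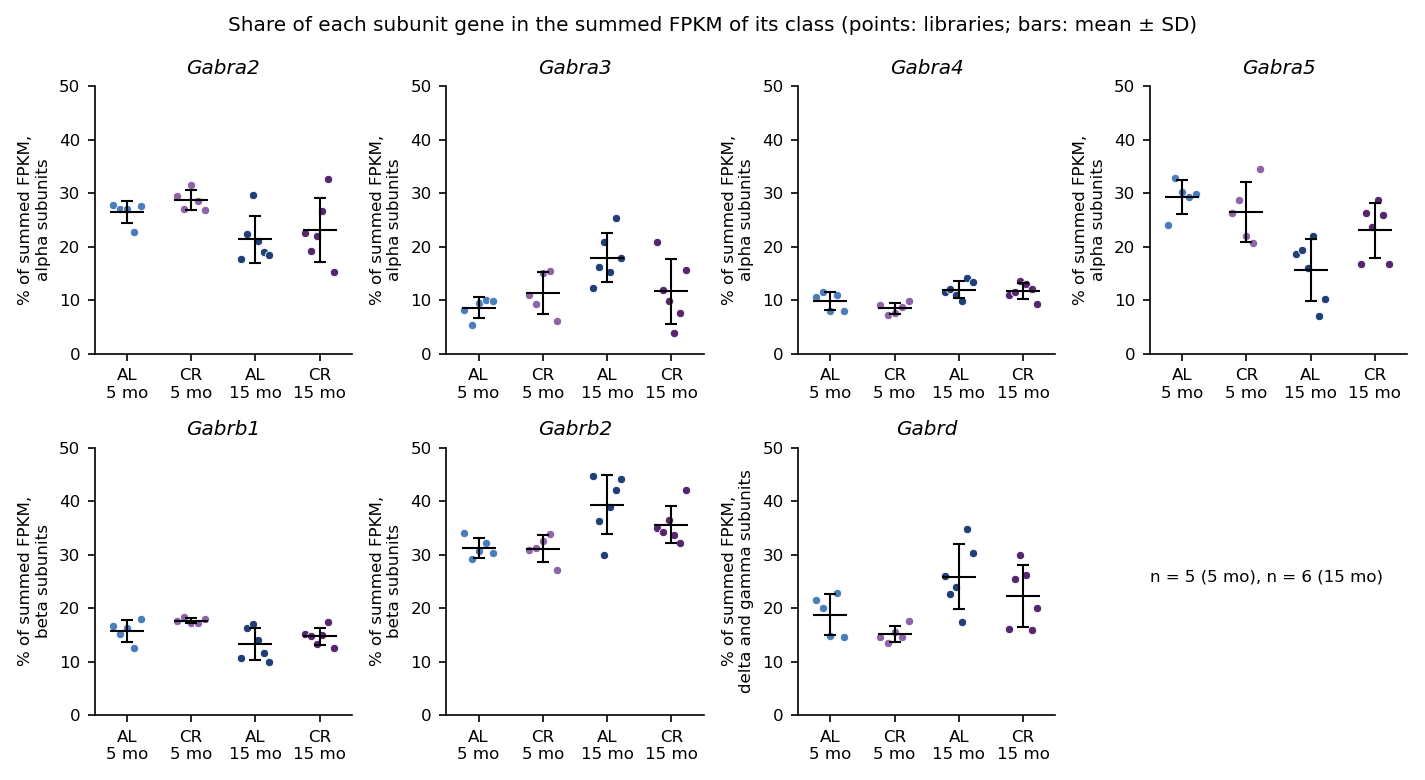
Share (percent) of each subunit gene in the summed FPKM of its class in each library (points), with the mean and SD of each group, for AL and CR mice at 5 and 15 months. The Gabra5 share averages 29.2% in AL 5 months and 15.5% in AL 15 months, and the Gabra3 share 8.57% and 17.9%.

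Genes of the wider GABA pathway were followed in 5 lists. With age in AL mice 2 of 20 genes for receptor clustering and trafficking fell, a share like that of all tested genes (9.97% lower): Gphn, the scaffold gephyrin at inhibitory synapses, by 0.27 on the log2 scale (limma adjusted p = 0.0214) and Slitrk3, a postsynaptic adhesion protein of inhibitory synapses, by 0.47 (limma adjusted p = 0.0145), and the list's median log2 difference was -0.08. Of 5 GABA-B receptor genes 1 fell, the auxiliary subunit Kctd12, by 0.87 (limma adjusted p = 0.00215), with a list median of -0.16. Of 4 genes for neurosteroids and endozepines 1 fell, Dbi, which encodes the diazepam binding inhibitor, by 0.63 (limma adjusted p = 0.00185), with a list median of -0.33. None of 7 genes for GABA synthesis, release, uptake and breakdown and none of 5 genes for the chloride gradient was called, with list medians of 0.11 and -0.09, against -0.0018 over all genes. Gad1, a GABA-synthesising enzyme, had a log2 difference of 0.16 (limma adjusted p = 0.231), and Slc12a5, the neuronal chloride exporter, 0.16 (limma adjusted p = 0.248). No gene of these 5 lists was called in the other 5 comparisons.

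Genes whose pattern was most like that of each member were taken by the Pearson correlation of log2(FPKM + 0.1) over the 22 libraries, as a description over libraries that share age, diet and regional make-up. For Gabra5 they were Cabp7 (0.966), Tanc1 (0.938) and Nr3c2 (0.933). For Gabra2 they were Dgkb (0.918), Sh3bgrl (0.917) and Myo5b (0.917), and for Gabrb1 Chrna7 (0.928), Frmd7 (0.924) and Pcdh1 (0.910). Gabra3 was most like C730002L08Rik (0.924), Rims2 (0.918) and Kcnf1 (0.913). Gabrd was most like Akap7 (0.852), Pdyn (0.847) and Pde8b (0.840), and Gabra4 most like Pde7b (0.868), Mapk14 (0.852) and Thsd7a (0.847). For Gabrb2 they included Dennd5b (0.869) and 8030462N17Rik (0.864).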

How the data were processed

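RNA from the microdissected CA1 of 22 mice was made into unstranded TruSeq libraries. The authors used TopHat (mm10 genome) and Picard and deposited FPKM per gene from Cufflinks, with bias and multi-read correction; versions and annotation were not given in the sources used here. The 7 genes and the gene lists were chosen with earlier results of these data known. The depth of each library is unknown here, as the paper states only an average over samples. The FPKM do not resolve into whole reads (at most 0.246% of genes on the commonest step), so no counting interval could be given. Libraries had a median of 2.51 to 3.10 FPKM and 18281 to 19175 genes above 0.

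Genes with a mean of at least 0.1 FPKM (16978 of 23361) were fitted as log2(FPKM + 0.1) with limma 3.58.1 (R 4.3.3), 4 groups in 1 fit, trended eBayes and Benjamini-Hochberg adjustment over all genes in each of 6 contrasts, threshold 0.05. Fold changes on this scale understate changes of low genes. Exact two-sided permutation tests (numpy 2.4.6) enumerated all divisions of 2 groups. The fit was tested on simulated data. Named genes were all receptor genes, pathway genes called in at least 1 contrast (at most 4 per list) and the 3 genes of mean FPKM of at least 1 most correlated with each member; Gad1 and Slc12a5 were named after their values were seen. Results on 3 other receptor genes are not reported here. Alternatives were pseudocounts of 1 and 0.01, other filters, median and quantile scaling, eBayes without a trend, separate fits, covariates, a replicate block and leaving out mice.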

Additional observations from a re-analysis of the deposited data

Results flagged for a closer look

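In 56 groups of 5 or 6 libraries (levels and class shares of the 7 genes), 3 held a library far from the others by Dixon's criterion, which chance flags in about 1 of 20 groups. All 3 concerned Gabra2. In CR 5 months, replicate 2 had the highest level at 100.1 FPKM, while the others lay between 84.5 and 86.3. In AL 15 months, replicate 2 had the highest level at 75.8 FPKM, with the others between 46.7 and 57.2. In AL 5 months, replicate 3 had the lowest Gabra2 share of the alpha sum at 22.7%, with the others between 26.9% and 27.8%.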

How the results depend on the processing

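The depth of each library is unknown and the precision rests on 5 or 6 mice per group. The cause of each change below was not tested. With the regional score as a covariate, members called with age in AL mice went from 3 to 0, and log2 differences changed sign to -0.12 (Gabra4) and -0.17 (Gabrb2) with age in AL mice, 0.075 (Gabrb2) for CR against AL at 15 months, 0.25 (Gabra5) and -0.013 (Gabrb2) with age in CR mice, and -0.27 (Gabra3) and -0.092 (Gabrb2) for CR 15 months against AL 5 months. Without the 3 libraries of lowest CA1 score (chosen after seeing the data), 1 member, Gabra2, was called with age in CR mice (-0.59, limma adjusted p = 0.0275), and signs changed to -0.12 (Gabra4) and -0.047 (Gabrb2) with age in AL mice, 0.093 (Gabrb2) and 0.10 (Gabrd) for CR against AL at 15 months and -0.036 (Gabra2) for the interaction. The signs of the share differences for CR against AL at 15 months also changed there, to -1.57 (Gabra2), 0.59 (Gabra4), -0.33 (Gabrb1) and 1.04 points (Gabrd). Of these 3 libraries only CR 15 months replicate 4 came from CR mice. For age in CR mice the groups therefore lost the same library as in the leave-one-out fit without it. With the interneuron score as a covariate Gabra3 changed sign to -0.11 for CR against AL at 5 months and 0.17 with age in CR mice. Shifting libraries to a common median gave -0.00025 for Gabra4 with age in AL mice, and the log2 ratio to the rest of the class gave -0.068 for the Gabra3 share with age in CR mice. Fitting the 2 groups alone called 4 members with age in AL mice. Deviations of same-numbered libraries from their group means had correlations of -0.14 to 0.16 over 31 pairs, 2 above 0.1. Differently numbered libraries were not set beside them, so whether the numbers pair the mice was not tested. With the replicate block 3 members were called with age in AL mice and 0 in the other comparisons. Gabrb2 was then -0.00088 for CR 15 months against AL 5 months. Over all genes, the block called 323 for CR against AL at 15 months, against 126 in the main fit. Leaving out 1 mouse gave 2 to 3 members called with age in AL mice, and 0 to 1 for CR against AL at 15 months, for age in CR mice and for CR 15 months against AL 5 months. In the other comparisons no alternative changed the count of members called. Over the same leave-one-out fits, ranges that crossed 0 were -0.028 to 0.10 (Gabra4, age in AL), -0.0031 to 0.11 (Gabra2) and -0.00026 to 0.13 (Gabrb1) for CR against AL at 5 months, -0.051 to 0.39 (Gabra3, CR 15 months against AL 5 months), -0.36 to 0.091 (Gabra3, age in CR), -0.14 to 0.030 (Gabrb2, CR against AL at 15 months), and -0.015 to 0.24 (Gabra2), -0.055 to 0.12 (Gabrb2) and -0.068 to 0.23 (Gabrd) for the interaction. For shares, in points, they were -0.23 to 3.34 (Gabra2) and -0.67 to 0.25 (Gabra4) for CR against AL at 15 months, -1.57 to 1.82 (Gabra3, age in CR) and -0.85 to 0.86 (Gabrb2, CR against AL at 5 months). In all, 515 of 539 log2 differences kept their direction and side of the threshold when 1 mouse was left out, as did 476 of 497 under the other alternatives. Most of these differences were not called in the main fit. For the class shares, 331 of 385 differences kept direction and side of p = 0.05 (exact permutation) when 1 mouse was left out. Under the other alternatives 78 of 93 did.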
